A study of Mus musculus with 6 samples.

Results

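The genes described here encode the subunits of the mitochondrial respiratory chain that are carried in the nuclear genome. They were chosen by name from the deposited count table of mouse genes: symbols that start with *Nduf*, *Uqcr*, *Atp5*, *Cox4i*, *Cox5*, *Cox6*, *Cox7* or *Cox8*, together with *Sdha*, *Sdhb*, *Sdhc*, *Sdhd* and *Cyc1*. Of 107 rows with such names, 9 with a -ps suffix and the muscle and brown fat isoforms *Cox7a1* and *Cox8b* were dropped, which left 96 of the 55341 rows of the table. By the complex they belong to, 39 fell to complex I, 4 to complex II, 9 to complex III, 19 to complex IV and 17 to complex V, and 8 were assembly factors of complex I, *Ndufaf1* to *Ndufaf8*, which share the name but are not part of the finished enzyme.

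The study compared aortic vessels of miRNA-26b-/- mice with those of miRNA-26b+/+ mice, to learn which genes change when this microRNA is missing. All mice were 8 weeks old and fed chow, the labels give the strain of both groups as C57BL/6NCrl, and each library came from 1 mouse. M2626, M2627 and M2628 are the libraries of miRNA-26b-/- mice, and M2629, M2630 and M2631 those of miRNA-26b+/+ mice (n = 3 per group). Values are given in that order, the miRNA-26b-/- libraries before the word against. The deleted stretch lies in an intron of *Ctdsp1* and holds the hairpin of the microRNA. It was flanked by loxP sites in 129/Sv embryonic stem cells and removed by a tamoxifen-induced Cre recombinase that was later bred out, and the study describes the line as of mixed 129/Sv and C57BL/6 background in one place and all mice as on the C57BL/6 background in another. Whether the 2 groups carry the same share of 129/Sv genome was not analysed here. Endothelial cells are named in the labels and in the methods whole pieces of vessel: the 6 smooth muscle markers, among them *Myh11*, *Acta2* and *Tagln*, summed to 31457 to 41209 CPM (counts per 1000000 counts assigned to genes) per library and the 6 endothelial markers to 405 to 1662 CPM. The p-values below measure the spread between these mice.

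The respiratory chain sits in the inner mitochondrial membrane. Complex I takes electrons from NADH and complex II from succinate, both pass them through ubiquinone to complex III, and cytochrome c carries them on to complex IV, where oxygen is reduced. Complexes I, III and IV pump protons, and complex V, the ATP synthase, uses their return to make ATP. Most subunits are nuclear genes, a few core ones are read from mitochondrial DNA, and a microRNA lowers its targets mainly by pairing its seed, bases 2 to 8, with sites in their 3′ UTRs.

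The seed of miR-26b-5p, one of the mature strands of the deleted hairpin, was rarely found in these genes. The seed of the other strand, miR-26b-3p, was not searched for. The 5p sequence from RefSeq, at chr1:74394324-74394344 on the forward strand of GRCm38, is shown with its seed in capitals because the next count turns on these letters.
mmu-miR-26b-5p: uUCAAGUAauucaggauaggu
A match to the seed, TACTTGA in the sense strand, occurred in the longest annotated 3′ UTR of 2 of the 92 members that have one (2.17%), against 1523 of the 13458 tested genes with an annotated 3′ UTR (11.3%). The 3′ UTRs of the tested members were also short, with a median length of 235 bases against 1205 bases. Per kilobase of 3′ UTR the tested members held 0.0449 sites and all tested genes 0.0768. Both sites are printed with the match in capitals, on the strand of the gene, and an A follows the match in *Ndufv2*, which makes it the longer type of site.
Cox5a, chr9:57532302-57532331, forward strand: actgctattgcTACTTGAttgaaacagttg
Ndufv2, chr17:66078775-66078804, reverse strand: caaacccaccaTACTTGAactttagctatg
*Cox5a*, a subunit of complex IV, had 78.1, 84.4 and 50.5 against 78.6, 89.9 and 47.3 CPM. Its log2 fold change, miRNA-26b-/- over miRNA-26b+/+ here and throughout, was -0.02 (95% interval -0.55 to 0.50). *Ndufv2*, a core subunit of complex I with an iron-sulphur cluster, had 73.9, 74.1 and 80.8 against 85.3, 68.0 and 62.5 CPM, a log2 fold change of 0.07 (95% interval -0.31 to 0.45). The groups overlapped for both genes.

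Of the 96 members, 89 had more than 1 CPM in at least 2 libraries and were tested, 36 of complex I, 4 of complex II, 9 of complex III, 16 of complex IV, 16 of complex V and the 8 assembly factors. Not tested were *Cox7b2* and *Cox8c*, isoforms best known from testis, with no count in any library, the processed pseudogenes *Ndufs6b*, *Ndufa11b*, *Ndufb4c* and *Cox6c2*, and *Atp5l*, a membrane subunit of complex V. *Atp5l* was listed with 0, 0 and 13 against 38, 0 and 1 counts, while *Atp5b* of the same complex had 523.4 CPM or more in every library. Reads that align to several places are not counted under the authors' settings, and 49 members shared at least 1 stretch of 50 bases of transcript with another gene. The share was over 25% in 5 members, the pseudogenes *Ndufb4c*, *Cox6c2* and *Ndufs6b* and the tested genes *Atp5g2* (38.4%) and *Uqcrb* (25.4%), and in *Atp5l* it was 7.63%. The exons of 32 members overlapped those of another gene, and such reads were counted for both genes.

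Between genes, levels were compared as CPM per kilobase of exon, with the exon length taken from the count table. That length can far exceed the coding length, as in *Atp5e* (1756 and 156 bases) and *Ndufab1* (6883 and 468 bases). The orders of genes and complexes below rest on this division. The median of the members' mean levels was 60.9 for complex III, 54.8 for complex II, 44.5 for complex V, 41.8 for complex IV and 33.5 for complex I, and 5.32 for the assembly factors. On the same scale the ranges of the complexes overlapped widely: from 1.84 to 102.5 in complex I, 37.1 to 71.3 in complex II, 34.02 to 99.8 in complex III, 1.52 to 289.3 in complex IV and 1.96 to 193.4 in complex V. The assembly factors ranged from 1.36 to 13.6.

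**Figure D1:**
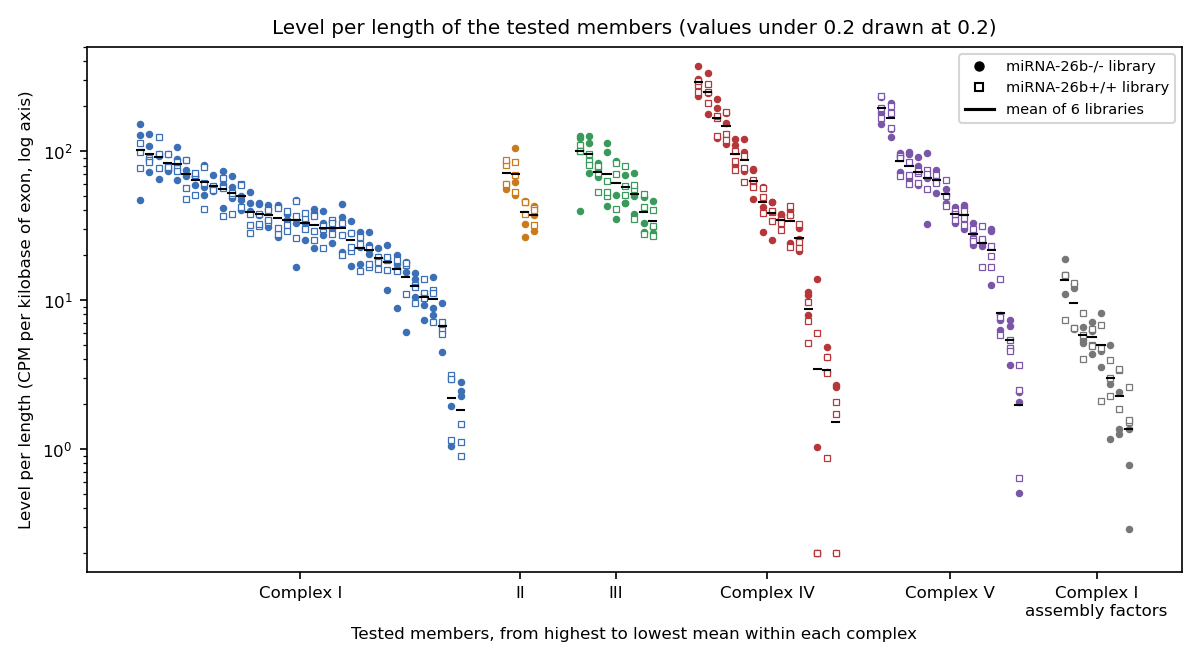
Level per length of the 89 tested members, in CPM per kilobase of exon on a log axis, ordered from high to low within each complex on the horizontal axis, with filled circles for the 3 miRNA-26b-/- libraries, open squares for the 3 miRNA-26b+/+ libraries and a bar for the mean of all 6. The highest mean, 289.3, belongs to *Cox8a* in complex IV, the 8 assembly factors lie at 13.6 or below, and filled and open symbols overlap for most genes.

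In complex IV the common isoforms *Cox8a* (289.3 ± 48.9 CPM per kilobase, SD, n = 6), *Cox6a1* (249.9 ± 55.0) and *Cox4i1* (167.8 ± 38.9) led the order, with *Cox8a* and *Cox6a1* closer to each other than their spread. *Atp5a1* (193.4 ± 33.7) and *Atp5b* (166.5 ± 35.6), the subunits that form the catalytic head of complex V, came next to them and also differed by less than their spread. *Uqcr10* (99.8 ± 31.4) was highest in complex III and *Ndufa2* (102.5 ± 37.2) in complex I, and *Sdha* (71.3 ± 13.9), the flavoprotein of complex II, lay beside *Sdhd* (70.6 ± 20.6), one of its membrane anchors. At the low end stood *Ndufb4* (1.84 ± 0.779) in complex I, *Cox6b2* (1.52 ± 1.23) in complex IV, *Atp5s* (1.96 ± 1.21), a coupling factor of complex V, and *Ndufaf6* (1.36 ± 0.795). Of the windows of 50 bases in *Ndufb4* transcripts, 18.3% were shared with other genes. These were 341 windows, beside a coding length of 387 bases, and the pseudogene *Ndufb4c* shared all of its own 341 windows. Reads that align to several places are not counted, so the level of *Ndufb4* may be set too low, which was not tested.

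Between genotypes, the summed level of the members, which leaves out subunits read from mitochondrial DNA, did not differ beyond the spread of the mice. The 96 members summed to 7723, 8903 and 5775 against 7617, 8002 and 6320 CPM, or 7467 ± 1579 against 7313 ± 882 CPM (SD, n = 3 each). The highest sum, in M2627, and the lowest, in M2628, both belonged to miRNA-26b-/- mice. A sum over bulk tissue counts cells and RNA together, so fewer cells rich in mitochondria and less such RNA per cell cannot be told apart.

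At an unadjusted p under 0.05 in edgeR's quasi-likelihood test, 1 of the 89 tested members was called, or 1.12%, against 6.47% of all 16017 genes tested (3.4% higher and 3.07% lower in miRNA-26b-/- mice). After Benjamini-Hochberg adjustment over all genes none was called, against 0.00624% of all genes (DESeq2 called 0 members at an unadjusted p under 0.05). The groups did not overlap for 4 members, or 4.49%, against 11.7% of all genes. They were *Ndufs6*, *Ndufb4* and *Cox7c*, higher in miRNA-26b-/- mice (6.13% of all genes), and *Ndufaf6*, lower (5.52% of all genes), and both shares of the members lay below the background. The smallest p-value that exact permutation allows for 3 mice against 3 is 0.1. The fitted log2 fold change was above 0 for 56 members and below 0 for 33, where 51.4% of all genes were above 0, with a median of 0.07 against 0.01 over all genes. Short coding genes in general also lay above 0 more often. Up to 438 bases, the median coding length of the tested members, 538 of all 898 did (median 0.09). Of longer coding genes 6559 of 12730 did (median 0.01). The 45 short members had 30 above and 15 below 0 (median 0.09), and the 44 longer ones 26 and 18 (median 0.06). The 95% interval lay within a 2-fold change in either direction for 73 of the 89 members and within 1.5-fold for 31.

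**Figure D2:**
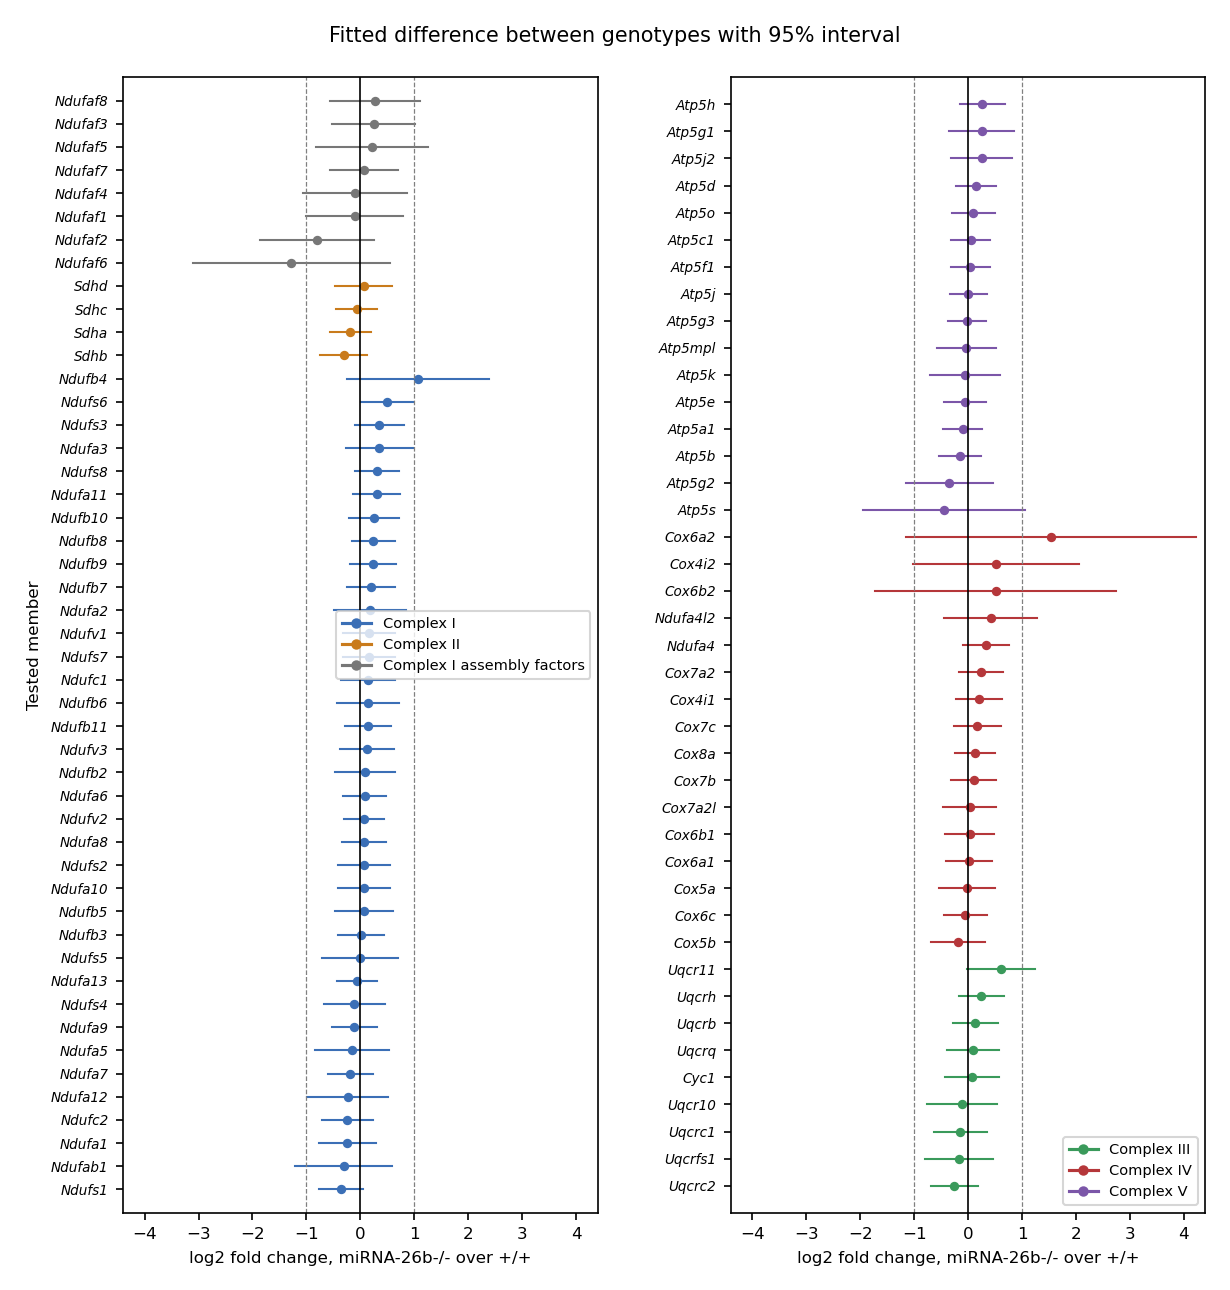
Fitted log2 fold change of each of the 89 tested members, miRNA-26b-/- over miRNA-26b+/+ on the horizontal axis, with its 95% interval, coloured by complex, where dashed lines mark a 2-fold change. The interval of *Ndufs6* alone excludes 0, and the intervals of lowly expressed genes such as *Cox6a2*, *Cox6b2* and *Ndufaf6* are the widest.

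Complex I had 25 members above and 11 below 0 and a median log2 fold change of 0.08. The 7 core subunits, which carry the flavin and the iron-sulphur clusters, had a median of 0.16 (6 above and 1 below 0) and the 29 accessory subunits one of 0.08 (19 and 10). In the peripheral arm, which reaches into the matrix and binds NADH, the median was 0.07 over 16 members, and in the membrane arm, which pumps protons, it was 0.11 over 20.

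*Ndufs6*, an accessory subunit of the peripheral arm on chromosome 13 of GRCm38 from 73319838 to 73328542, was the member that passed the unadjusted test. It had 40.5, 47.7 and 35.7 against 34.02, 25.2 and 28.5 CPM. Every miRNA-26b-/- library lay above every miRNA-26b+/+ library, the nearest values being those of M2628 and M2629. Its log2 fold change was 0.49 (standard error 0.226, 95% interval 0.01 to 0.97, adjusted p = 0.763 by edgeR), a 1.40-fold higher level. Leaving out M2626, M2627, M2630 or M2631, or using DESeq2, ended the unadjusted call (p from 0.0641 to 0.187), with log2 fold changes of 0.36 to 0.50, and without M2627 and M2630 together it was 0.28. Its exons overlap those of *Mrpl36* on the other strand by 30 of 898 bases.

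The complex I members next in order of p did not pass. *Ndufs1*, the largest core subunit, had 59.3, 88.2 and 75.003 against 89.5, 111.1 and 83.8 CPM and a log2 fold change at -0.36 (95% interval -0.77 to 0.05), with M2627 above 1 of the miRNA-26b+/+ libraries. *Ndufb4*, in the membrane arm, had 5.37, 4.32 and 4.73 against 2.81, 1.72 and 2.14 CPM, so the groups did not overlap, yet its interval ran from -0.24 to 2.39 on the log2 scale. *Ndufs3* and *Ndufs8*, both core subunits, had log2 fold changes of 0.35 (standard error 0.214) and 0.31 (standard error 0.193). For *Ndufs3* the values were 51.1, 62.2 and 44.7 against 36.4, 48.7 and 38.1 CPM, and for *Ndufs8* 48.1, 58.1 and 57.1 against 48.5, 40.4 and 41.9 CPM. In each of these a single pair of libraries crossed over. *Ndufa2*, the highest of complex I per length, had 86.4, 73.8 and 27.1 against 64.3, 43.7 and 56.3 CPM, and M2628 held its lowest value by a wide margin. *Ndufab1*, the acyl carrier protein of the matrix, was lowest in M2628 and M2631, with 20.2, 13.4 and 7.17 against 21.6, 20.4 and 7.89 CPM.

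Complex II is the only one with no subunit read from mitochondrial DNA, and it also serves the citric acid cycle. Of its 4 genes 3 had a log2 fold change below 0, with a median of -0.13. *Sdha* had 248.1, 349.2 and 230.1 against 330.3, 357.3 and 249.8 CPM (log2 fold change -0.19, standard error 0.178). *Sdhb*, the iron-sulphur subunit, had 72.3, 103.7 and 58.9 against 102.6, 102.6 and 84.4 CPM (log2 fold change -0.31, standard error 0.205). The membrane anchors *Sdhc* and *Sdhd* had log2 fold changes of -0.07 (standard error 0.179) and 0.06 (standard error 0.249). *Sdhc* had 121.4, 139.5 and 94.1 against 135.2, 130.2 and 103.9 CPM, and *Sdhd* 76.1, 128.2 and 62.1 against 84.7, 104.7 and 65.7 CPM. All 4 genes were lowest in M2628, and 3 of them, all but *Sdha*, were highest in M2627.

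In complex III the median was 0.08, with 5 genes above and 4 below 0. The core proteins *Uqcrc1* and *Uqcrc2* had log2 fold changes below 0 with a median of -0.20, the redox subunits *Uqcrfs1* (Rieske protein) and *Cyc1* (cytochrome c1) had a median of -0.05, and the 5 small subunits one of 0.14. *Uqcr11*, a small subunit, had 63.0, 72.4 and 27.5 against 32.2, 40.5 and 33.9 CPM. M2626 and M2627 stood above all miRNA-26b+/+ libraries and M2628 below them, and the log2 fold change of 0.61 (95% interval -0.02 to 1.24) did not pass the test. *Uqcr10*, another small subunit, was at 74.2, 71.2 and 23.2 against 63.9, 58.5 and 58.7 CPM, with M2628 again far below the rest. *Uqcrq*, which has the lowest level per length of the complex, had 56.4, 84.7 and 51.6 against 74.1, 57.9 and 49.0 CPM and a log2 fold change of 0.09.

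Complex IV leaned most to one side, with 13 of 16 genes above 0 and a median of 0.15. None of the 16 was called. Among the 11 common isoforms the median was 0.11, and among the 5 tested paralogues and tissue isoforms, with a median standard error of 0.719, it was 0.51. *Cox4i1*, the common form of a regulatory subunit, had 345.0, 302.9 and 189.2 against 259.2, 267.5 and 196.3 CPM (log2 fold change 0.20, standard error 0.199). *Ndufa4*, named for complex I but a subunit of complex IV, had 136.2, 166.9 and 102.3 against 127.5, 105.9 and 85.8 CPM (log2 fold change 0.34, standard error 0.198). *Cox7c* had 42.5, 40.3 and 42.3 against 38.9, 37.5 and 33.3 CPM, with no overlap between the groups, and a log2 fold change of 0.17 (95% interval -0.26 to 0.60). It was picked for mention after its values were seen, being the only complex IV gene whose groups did not overlap.

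The common isoforms with the highest levels overlapped between genotypes. *Cox8a* had 187.7, 231.0 and 145.1 against 172.2, 183.7 and 154.8 CPM and *Cox6a1* 171.9, 234.7 and 124.5 against 174.0, 199.5 and 148.0 CPM. *Cox6b1* had 109.3, 127.5 and 78.5 against 91.8, 130.2 and 84.3 CPM, *Cox7a2* 114.4, 103.0 and 75.6 against 81.1, 70.7 and 93.9 CPM, and *Cox7b* 91.5, 90.2 and 58.2 against 73.4, 77.6 and 70.0 CPM. Their log2 fold changes lay between 0.02 and 0.24, and M2628 held the lowest value of all these but *Cox7a2*, which was lowest in M2630.

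In every library the common isoform held most of each pair. Per kilobase, *Cox4i1* made up 96.2% to 99.5% of the *Cox4i1* and *Cox4i2* pair, and *Cox4i2*, the hypoxia-responsive isoform, ran at 3.27, 2.58 and 3.80 against 3.24, 0.682 and 2.53 CPM. *Cox6a2*, the heart and skeletal muscle isoform, had 0.700, 9.36 and 0 against 0, 4.06 and 0 CPM and so took between 0% and 3.95% of its pair with *Cox6a1*. It was highest in M2627 and M2630. The 8 cardiomyocyte markers summed to 452.3 and 452.5 CPM there and to 125.2 to 167.8 CPM in the other 4 libraries. 6 of the 8 were highest in these libraries, *Nppa* was counted in M2630 alone, and *Ryr2*, which had 96.2, 74.4 and 126.4 against 89.9, 135.0 and 119.8 CPM, was lowest in M2627 and made up most of the sum in the libraries with low sums. The part of these cells in the result was not tested. *Cox6b2*, best known from testis, had 2.88, 2.999 and 0 against 0, 2.2985 and 1.915 CPM.

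*Cox7a2l*, which helps to join complexes III and IV, made up 24.1% to 34.2% of its pair with *Cox7a2*, with 67.7, 66.9 and 37.5 against 50.3, 57.6 and 58.7 CPM. *Ndufa4l2*, a hypoxia-induced paralogue of *Ndufa4*, made up 6.13% to 12.7% of that pair, with 12.5, 8.64 and 11.8 against 7.94, 10.6 and 5.65 CPM (log2 fold change 0.42, standard error 0.406). The shares of the pairs overlapped between genotypes throughout.

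Complex V was evenly split, 8 genes above and 8 below 0, with a median of -0.01, and 10 of its 16 intervals lay within a 1.5-fold change. *Atp5a1* had 567.3, 723.1 and 474.7 against 614.1, 735.2 and 523.9 CPM (log2 fold change -0.10, 95% interval -0.46 to 0.26). The 3 genes for subunit c, which encode the same mature protein of the rotor ring, differed in level: *Atp5g3* gave 77.3% to 86.7% of their summed level per kilobase, *Atp5g2* 7.36% to 17.1% and *Atp5g1* 5.60% to 8.44%. That order held in all 6 libraries, narrowly between *Atp5g2* (8.25%) and *Atp5g1* (8.21%) in M2627. The order of *Atp5g2* and *Atp5g1* rests on the division by exon length, 1675 and 4912 bases, for coding lengths of 438 and 408 bases. In CPM *Atp5g1* lay above *Atp5g2* in every library but M2630. Of the windows of *Atp5g2*, 38.4% were shared with other genes, so its level may also miss reads. *Atp5g3* had 141.5, 162.1 and 113.7 against 150.8, 136.8 and 133.5 CPM, *Atp5g1* 33.0, 35.9 and 18.1 against 23.4, 22.3 and 26.5 CPM and *Atp5g2* 13.3, 12.3 and 10.6 against 9.83, 23.2 and 12.8 CPM. *Atp5s* ranged 7.20-fold across libraries, with 4.94, 4.199 and 1.04 against 7.48, 5.06 and 1.30 CPM.

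The assembly factors of complex I were split 4 and 4, with a median of -0.01 and a median standard error of 0.437 against 0.224 over all members. *Ndufaf2* had 3.77, 4.08 and 7.17 against 5.49, 10.1 and 10.2 CPM (log2 fold change -0.80, standard error 0.494). *Ndufaf6* had 1.67, 0.960 and 0.358 against 3.24, 1.87 and 1.95 CPM, with no overlap and an interval from -3.11 to 0.54 on the log2 scale. *Ndufaf8*, the highest of them per length, had 12.4, 15.8 and 9.10 against 12.3, 6.14 and 12.3 CPM.

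What set the libraries apart was shared by most of the members and crossed the genotypes. Of the 89 tested members, 38 were highest in M2627 and 24 in M2626, while 49 were lowest in M2628 and 21 in M2631. In 39 members both the highest and the lowest value came from miRNA-26b-/- libraries, and in 8 both came from miRNA-26b+/+ libraries. The median deviation of the members from their own means, in log2(CPM + 0.5), was 0.17 in M2626, 0.27 in M2627, -0.32 in M2628, 0.06 in M2629, 0.07 in M2630 and -0.21 in M2631. Over all genes tested the same medians stayed between -0.01 and 0.04. Among genes with a mean of at least 10 CPM, the median SD of log2(CPM + 0.5) within a genotype was 0.325 for the 79 members and 0.273 for all 9765 genes.

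**Figure D3:**
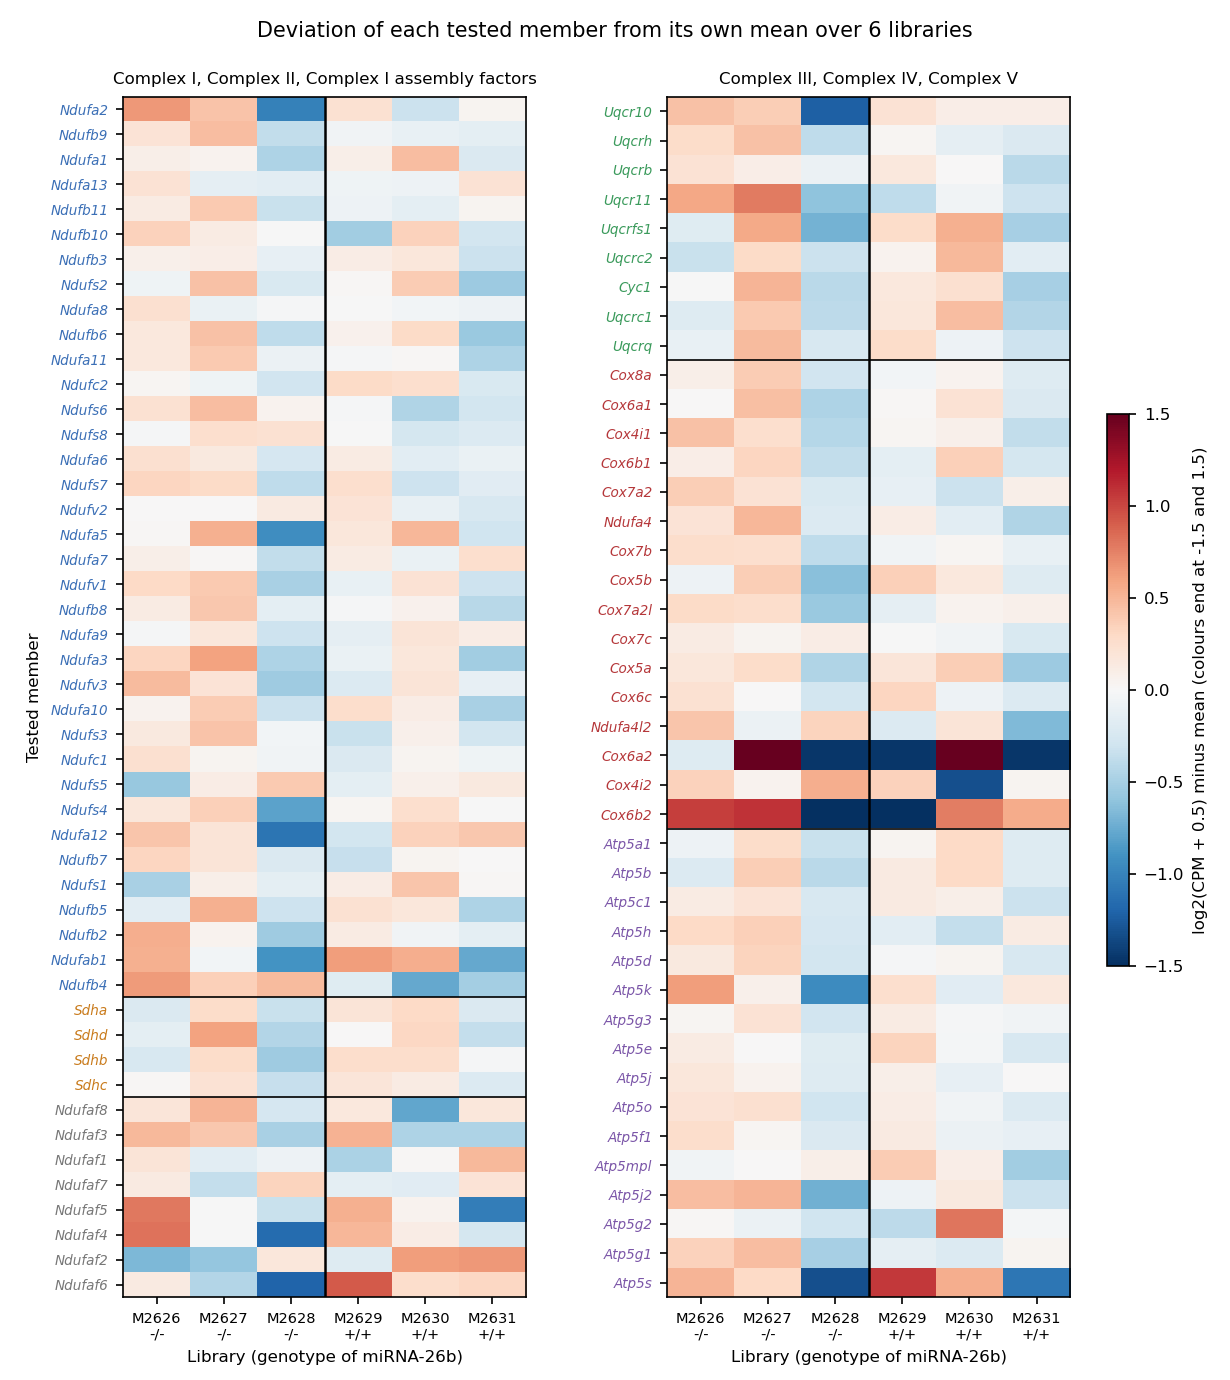
Deviation of each of the 89 tested members from its own mean over the 6 libraries, in log2(CPM + 0.5), with libraries as columns, genes as rows, gene names coloured by complex and a black line between the genotypes. The column of M2628 is mostly blue, with a median of -0.32, and that of M2627 mostly red, with a median of 0.27, although both are miRNA-26b-/-.

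The complexes shared this order only in part. Complex III deviated by 0.44 in M2627 and -0.39 in M2628, and complex II by 0.27 and -0.39. Complex IV deviated by 0.27 and -0.38, complex V by 0.23 and -0.29 and complex I by 0.23 and -0.30. The complexes parted most in M2626: the median was 0.22 for complex IV and 0.16 each for complexes I and V, -0.00 for complex III and -0.18 for complex II. In M2630 complex II was at 0.28 and the other complexes at 0.01 to 0.09. In M2629 complexes II, III and V were at 0.18, 0.16 and 0.11 and complexes I and IV at -0.00 and -0.02. The assembly factors shared the low value of M2628 (-0.29) but were at -0.08 in M2627 and 0.19 in M2631. When the members were split at their median coding length of 438 bases, the 45 shorter ones deviated by 0.27 and -0.29 and the 44 longer ones by 0.27 and -0.33 in M2627 and M2628. All coding genes up to that length deviated by 0.09 and -0.07.

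Leaving out 1 of these libraries changed which members were called, and in which direction. The direction of the shift was set by the choice of library. M2628 held the lowest value of 49 members and M2627 the highest value of 38, and both are miRNA-26b-/-. Without M2628, 13 members were called at an unadjusted p under 0.05 (edgeR), all of them higher in miRNA-26b-/- mice, or 14.6% against 10.8% of all genes in that fit, and the median log2 fold change was 0.23. They were *Uqcr11*, *Atp5j2*, *Uqcrh*, *Ndufa4*, *Ndufb9*, *Cox4i1*, *Ndufa2*, *Ndufs6*, *Atp5h*, *Ndufa3*, *Cox7a2*, *Ndufs3* and *Ndufv1*. None of the members passed after adjustment, where 82 of all genes did. The smallest adjusted p of a member was 0.0604, for *Uqcr11* with a log2 fold change of 0.93. Without M2627, 6 members were called, all of them lower, or 6.82% against 5.76%, and the median was -0.03. They were *Sdhb*, *Uqcrc2*, *Atp5b*, *Ndufs1*, *Sdha* and *Uqcrfs1*, at log2 fold changes between -0.60 and -0.40 and an adjusted p of 0.857 each. No gene was in both lists.

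**Figure D4:**
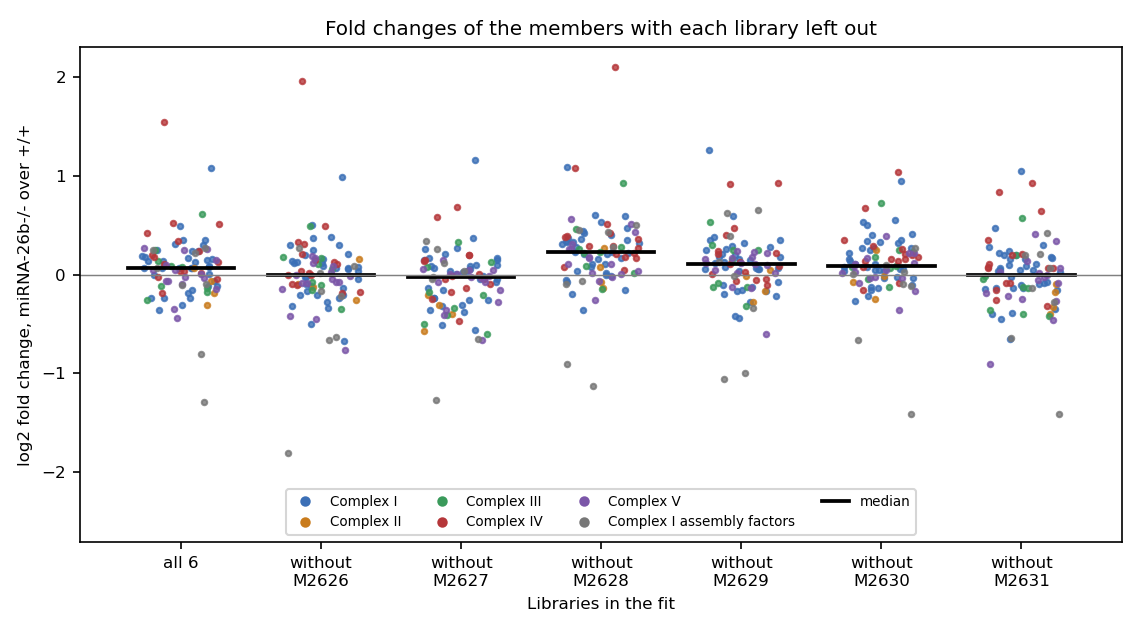
Log2 fold changes of the tested members (points, coloured by complex, spread sideways at random) with all 6 libraries and with any single library left out on the horizontal axis, with a bar for the median. The median lies at 0.07 with all libraries, at 0.23 without M2628 and at -0.03 without M2627.

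Cell type markers followed the order of the libraries in part. The 8 brown adipocyte markers, which include the dropped *Cox7a1* and *Cox8b*, summed to 254.5, 549.2 and 249.8 against 330.8, 451.4 and 164.6 CPM. M2627 and M2630 were highest, as in the sums of the members (8903 and 8002 CPM). M2626 lay close to M2628, although the members summed to 7723 CPM in M2626 and 5775 CPM in M2628. *Ucp1*, the uncoupling protein that defines brown fat, was present in all 6 libraries, and *Elovl3* was at 0 in M2628 and M2631. The 6 white adipocyte markers summed to 1250, 2699 and 902 against 1262, 1775 and 639 CPM. Of the cardiomyocyte list 4 genes, *Myh6*, *Myl7*, *Myl4* and *Nppa*, were at 0 in M2628, *Nppa* also in 4 others, and *Tnni3* was at 0 in M2631. Fast skeletal muscle markers summed to 37.9, 116.2 and 8.56 against 6.85, 13.3 and 4.38 CPM. They were highest in M2627 and M2626, where 38 and 24 members had their highest value. Schwann cell markers, with 163.0, 143.7 and 79.9 against 21.3, 43.0 and 65.5 CPM, were also highest in these libraries. The 6 endothelial markers ran otherwise, with 405 and 443 CPM in M2626 and M2627, 1662 CPM in M2628 and 1160, 1555 and 1342 CPM in the miRNA-26b+/+ libraries. Adventitial fibroblast and macrophage markers were likewise highest in M2628, at 14539 and 401.6 CPM. The part of these cell types in the result was not tested. Without M2627 and M2630 together, 1 of 88 members was called, or 1.14% against 4.0% of all genes in that fit. It was *Ndufb10* (log2 fold change 0.57), and the median was -0.00 with 44 members on each side.

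**Figure D5:**
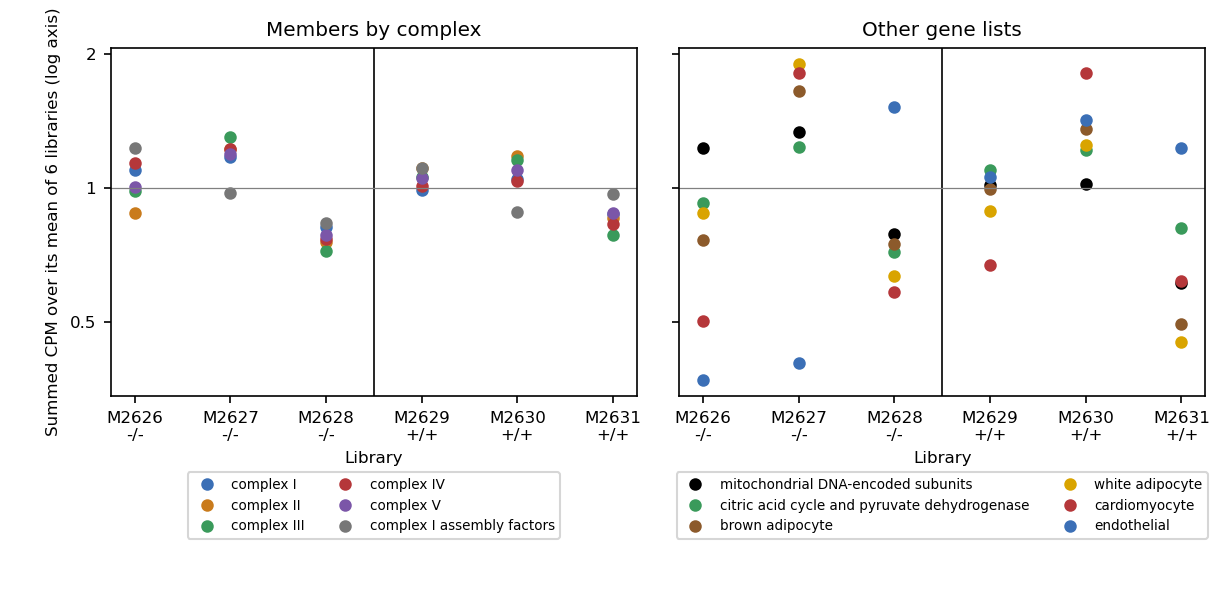
Summed CPM of each complex (left) and of other gene lists (right) in each library, divided by the mean of the 6 libraries and drawn on a log axis with base 2, with a line between the genotypes. The sums of complexes I to V are lowest in M2628 and highest in M2627, brown and white adipocyte markers are also highest in M2627, and endothelial markers are lowest in M2626 and M2627.

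Subunits read from mitochondrial DNA had fold changes to one side. Of the 13, 8 were tested and all 8 had a log2 fold change above 0, with a median of 0.32. At an unadjusted p under 0.05 *mt-Nd6* alone was called, or 12.5% of the 8 against 6.47% of all genes. It had 981.1, 1086 and 624.6 against 758.7, 672.4 and 386.9 CPM (log2 fold change 0.56, standard error 0.225, adjusted p = 0.736 by edgeR). The groups overlapped, since M2628 lay below M2629 and M2630. Summed over the 13 genes the level was 28831, 31370 and 18504 against 23894, 24005 and 14335 CPM, lowest in M2631 and then in M2628. Without M2628, 7 of the 8 were called (87.5%, against 10.8% of all genes in that fit). None was called without M2626, M2627 or M2631, and without M2631 the median was 0.12. The other 5 genes, *mt-Nd4l*, *mt-Co2*, *mt-Co3*, *mt-Atp6* and *mt-Atp8*, were listed at under 1 CPM in every library, beside 3687 to 8259 CPM for *mt-Co1* on the same molecule, so the sum covers only part of this genome.

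Of 42 further assembly factors 20 were above and 22 below 0 (median -0.01). *Taco1*, which activates translation of *mt-Co1*, was the one called, or 2.38% of the 42 against 6.47% of all genes. It had 4.08, 1.62 and 6.63 against 8.57, 9.44 and 11.2 CPM (log2 fold change -1.31, adjusted p = 0.736 by edgeR). Of 12 regulators 4 were above and 8 below 0. *Ppargc1b*, a coactivator of mitochondrial genes, was the one called, or 8.33% of the 12 against 6.47% of all genes. It had 1.17, 1.98 and 1.33 against 5.56, 8.15 and 2.86 CPM (log2 fold change -1.85, adjusted p = 0.736 by edgeR). The groups did not overlap for either gene, which held for 11.7% of all genes. The unadjusted call of *Taco1* was lost without M2627 (log2 fold change -0.87) or M2631 (-1.19), and that of *Ppargc1b* without M2626 (-1.72) or M2630 (-1.46). *Nrf1* and *Gabpa*, whose proteins bind promoters of respiratory genes, had log2 fold changes of -0.10 (standard error 0.276) and 0.03 (standard error 0.179). Of 18 genes of the citric acid cycle and pyruvate dehydrogenase 15 were below 0, with a median of -0.11, and none was called, but without M2628, 12 of the 18 were above 0 and without M2630, 10 were. Of 12 carriers, channels and electron donors 6 were on each side and none was called.

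The promoters of the members were searched for the motifs of these factors. In RefSeq promoters of GRCm38.p6, from 250 bases before to 50 after the start, which matched 72 members, CCGGAAG (ETS type) on either strand was found in 18 (25%) and GCGCATGCG (NRF1 type) in 10 (13.9%). Of all 27025 genes with a promoter there, tested here or not, 9.93% and 1.95% held them. The shares among tested genes alone were not counted. Both motifs stood in 4 members (5.56%, against 0.396% of all), *Uqcr11*, *Cox6a1*, *Atp5k* and *Atp5l*. The NRF1 type motif overlaps its own reverse complement, so neighbouring matches on both strands can be one stretch. The windows of *Uqcr11* and *Cox6a1* are shown on the strand of the gene with the motif in capitals, *Uqcr11* because it had the smallest p without M2628 and *Cox6a1* as a highly expressed subunit whose level barely differed between genotypes.
Uqcr11, ETS type, chr10:80406869-80406898: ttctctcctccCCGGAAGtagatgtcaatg
Uqcr11, NRF1 type, chr10:80406807-80406836: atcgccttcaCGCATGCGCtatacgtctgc
Cox6a1, ETS type, chr5:115348956-115348985: ccccatttccgCTTCCGGcgcgccggtgta
Cox6a1, NRF1 type, chr5:115349101-115349130: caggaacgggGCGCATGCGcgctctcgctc
All 4 windows lie on the reverse strand. A match is a description of the letters and not of binding.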

How the data were processed

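RNA of aortic vessels from 3 miRNA-26b-/- and 3 miRNA-26b+/+ mice was measured by sequencing, 1 library per mouse, with groups taken from the sample labels. Alignment by the authors used STAR and GRCm38 (mm10), and they deposited counts per gene name, made with featureCounts 1.6.4 over exons, where a read on exons of more than one gene counts toward all of them, no strand setting and reads aligning to several places not counted. The file names GENCODE release M21, which was used here for coordinates and 3′ UTRs. A deposited table with the authors' log2 CPM, fold changes and p-values was not used. Totals ranged from 25706728 to 33345037 counts. Their number limits the precision of genes with few counts.

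A gene entered the fit if its counts summed to 2 or more and 2 or more libraries had it above 1 CPM, which held for 16017 genes. TMM factors and the quasi-likelihood test came from edgeR 4.0.16 (R 4.3.3, limma 3.58.1), with a prior count of 0.125 and Benjamini-Hochberg adjustment over all genes. CPM is relative to all assigned counts. Standard errors were derived from the fold change and its F statistic. The procedure was tested on simulated counts.

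The members and the lists were chosen with earlier results of these data known. All members could be named. Values in every library are given for the 10 members with the smallest p, the highest and lowest level per length of each complex, the 5 with the largest spread, the isoform sets and complex II. *Cox5a* and *Ndufv2* follow from the seed sites. Other marker lists, for fast skeletal muscle (4.38 to 116.2 CPM summed per library), adventitial fibroblasts (7540 to 14539), macrophages (144.8 to 401.6), sympathetic neurons (7.59 to 220.2), Schwann cells (21.3 to 163.0) and erythroid cells (86.2 to 926.1), were summed in the same way. Of these, fast muscle and Schwann cell markers were mostly called higher in miRNA-26b-/- libraries, 8 of 9 and 4 of 4 tested. These calls are at an unadjusted p under 0.05 (edgeR), where 3.4% of all genes were called higher. None passed after adjustment, and the groups did not overlap for only 2 and 1 of them. In M2628, 6 of the 10 fast muscle markers had 0 counts. Sympathetic neuron markers were called higher in 2 of 4 tested, but all 4 were highest in M2627. Their sums were 7.59, 220.2 and 8.06 against 9.30, 47.2 and 21.5 CPM. The groups overlapped for all 4, and none passed after adjustment. The targeted *Mir26b* had 20 counts in M2630 and 0 in the other 5 libraries, which checks no label.

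Alternatives were other normalizations, filters, tests (DESeq2 1.42.0, limma voom, likelihood ratio, the earlier quasi-likelihood method), the prior count, the choice of members and leaving out each library.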

Additional observations from a re-analysis of the deposited data

How the results depend on the processing

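No paired analysis was possible because the labels carry no replicate numbers. The number of members called at an unadjusted p under 0.05 (1 with all libraries) was 0 with DESeq2 and 0 when the members whose exons overlap another gene were left out, which takes out *Ndufs6* itself. Over the 6 fits that drop a library it ran from 0 to 13, 0 without M2626 or M2631, 6 without M2627 and 13 without M2628, and the median log2 fold change of the members from -0.03 to 0.23. By complex this median ran from 0.01 to 0.23 for complex I, -0.35 to 0.00 for complex II, -0.21 to 0.23 for complex III, -0.02 to 0.29 for complex IV and -0.06 to 0.13 for complex V. The number of all genes called (1036) ran from 686, without M2631, to 1692, without M2628, and was 607 without M2627 and M2630, a choice made after seeing the data. Under the other normalizations, filters and tests and the other prior count 1 member was called, and the cause of these shifts was not tested.

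Single members changed direction as follows. With limma voom *Cox6a1* was at -0.0118 and *Cox7a2l* at -0.00991. Without M2627 and M2630, *Atp5g2* was at 0.0594, *Cox6a1* at -0.12, *Cox7a2l* at -0.0642, *Ndufa2* at -0.10, *Ndufaf8* at -0.21, *Sdhd* at -0.13 and *Uqcrq* at -0.19. Over the same 6 fits, the log2 fold change ran from -0.27 to 0.0475 for *Atp5a1*, -0.60 to 0.0815 for *Atp5g2*, -0.15 to 0.11 for *Atp5g3*, -0.90 to 0.11 for *Atp5s*, -0.24 to 0.22 for *Cox6a1*, -0.13 to 0.26 for *Cox6b1*, -0.10 to 1.08 for *Cox6b2*, -0.10 to 0.27 for *Cox7a2l*, -0.00335 to 0.29 for *Cox7b*, -0.046 to 0.29 for *Cox8a*, -0.12 to 0.53 for *Ndufa2*, -0.205 to 0.078 for *Sdhc*, -0.31 to 0.27 for *Sdhd*, -0.35 to 0.26 for *Uqcr10* and -0.17 to 0.25 for *Uqcrq*. The intervals of *Cox6a2*, *Cox6b2*, *Atp5s* and *Ndufaf6*, which had few counts and a wide spread between libraries, reach beyond a 2-fold change, and the part of depth in this was not tested.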
